A study of Mus musculus with 9 samples.

Results

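Some probe sets of a mouse expression array are annotated with more than 1 gene, so the level they report cannot be given to any single gene. Of the 41345 probe sets on the array, 1814 (4.39%) listed 2 or more gene symbols and are described here, across 5 wild-type (WT) and 4 Mst1/Mst2-knockout (KO) samples of regulatory T (Treg) cells. The rule that picks them uses the annotation and no measured value. A further 23521 probe sets listed 1 symbol and 16010 listed none. The 1814 probe sets carried 1447 different symbol lists and 2726 different symbols. Lists of 2 symbols were the most frequent (1140 probe sets), 241 held 3 symbols and 433 held more, up to 20.

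The samples are sorted CD45.2+CD45.1- CD4+YFP+ cells of strain C57BL/6, each measured on 1 array. All came from RAG1-/- recipients, which make no mature T or B cells of their own, that had received marrow 2 months earlier. The marrow was a 1:1 mixture of CD45.1 wild-type cells and CD45.2 cells from the donor of interest. WT donors carried Foxp3YFP-Cre, a reporter and recombinase at the Foxp3 locus, and KO donors carried the same allele together with Stk4f/f and Stk3f/f, the floxed genes of Mst1 and Mst2. Cre is therefore present in both groups and is meant to remove the kinases only in cells that express Foxp3. The labels give the alleles and not where deletion took place. The labels do not tell whether each sample of a group is from its own recipient, and the tests therefore weigh differences against a spread among samples that may be technical. Total RNA of 1 to 20 ng per sample was amplified before labelling. The study's title points to interleukin-2 receptor and STAT5 signalling, and the comparison asks which transcripts differ in Treg cells without the kinases. Neither Stk3 nor Stk4 was on any list of several symbols, so the deletion itself cannot be read from these probe sets.

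An array probe is a short DNA that captures any labelled transcript with a matching sequence. Genes that arose by recent duplication, such as the Schlafen, Bcl2a1, histone and interferon-inducible families, share long stretches of sequence, and processed pseudogenes resemble their parent messenger RNA. Probes within such stretches bind the products of every copy. A second source of shared annotation is position: small RNA genes lie inside the introns or exons of host genes, and antisense or neighbouring genes can overlap in span. In each case the reported value is a mixture, and a change can come from any of the genes named or from several of them.

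The sequences below show how alike listed genes can be, for a few of the lists described. Each is the stretch of 250 bases before the gene's start in RefSeq (build GRCm38.p6), read 5′ to 3′ on the gene's own strand. They are flanking DNA and not the probed transcripts, since probe sequences were not analysed here. Capitals mark bases that differ from the first gene of the set or have no partner there. For the Bcl2a1 genes, which encode copies of the survival protein A1, the first gene is Bcl2a1a (chr9:88956670-88956919, + strand), followed by Bcl2a1b (chr9:89199023-89199272, + strand) and Bcl2a1d (chr9:88731851-88732100, - strand).
Bcl2a1a: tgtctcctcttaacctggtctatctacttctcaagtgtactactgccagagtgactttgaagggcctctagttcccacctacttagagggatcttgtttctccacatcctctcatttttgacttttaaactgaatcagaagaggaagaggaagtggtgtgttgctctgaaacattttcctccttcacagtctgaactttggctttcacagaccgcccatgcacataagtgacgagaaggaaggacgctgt
Bcl2a1b: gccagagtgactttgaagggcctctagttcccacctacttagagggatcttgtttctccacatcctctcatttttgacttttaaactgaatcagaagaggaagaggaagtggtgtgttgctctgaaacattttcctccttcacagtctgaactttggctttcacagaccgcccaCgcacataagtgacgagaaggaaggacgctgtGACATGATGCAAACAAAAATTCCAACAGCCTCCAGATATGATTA
Bcl2a1d: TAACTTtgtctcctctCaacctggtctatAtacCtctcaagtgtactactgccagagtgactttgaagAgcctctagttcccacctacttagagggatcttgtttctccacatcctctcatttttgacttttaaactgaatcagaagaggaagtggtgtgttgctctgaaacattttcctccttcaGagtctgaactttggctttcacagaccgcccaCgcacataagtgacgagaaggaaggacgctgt
Over the 206 positions where the windows of Bcl2a1a and Bcl2a1b overlap, 205 were identical (99.5%). Bcl2a1d and Bcl2a1a were identical at 238 of 250 aligned positions, gaps included (95.2%).

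Slfn9 (chr11:82991831-82992080, - strand) and Slfn8 (chr11:83020811-83021060, - strand), members of the Schlafen family, have diverged further.
Slfn9: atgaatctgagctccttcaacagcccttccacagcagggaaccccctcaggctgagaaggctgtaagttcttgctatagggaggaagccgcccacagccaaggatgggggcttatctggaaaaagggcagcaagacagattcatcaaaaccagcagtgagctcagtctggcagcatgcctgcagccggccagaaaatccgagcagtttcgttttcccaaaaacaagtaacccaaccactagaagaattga
Slfn8: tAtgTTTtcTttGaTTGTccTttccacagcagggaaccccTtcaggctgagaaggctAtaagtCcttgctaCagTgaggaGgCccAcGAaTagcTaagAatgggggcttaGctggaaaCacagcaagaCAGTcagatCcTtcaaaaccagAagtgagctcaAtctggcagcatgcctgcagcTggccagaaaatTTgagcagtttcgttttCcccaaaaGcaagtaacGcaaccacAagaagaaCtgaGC
They were identical at 206 of 251 aligned positions (82.1%). At the other end of the scale, Arxes1 (chrX:136033117-136033366, + strand) and Arxes2 (chrX:135993570-135993819, + strand) had the same 250 bases, so 1 sequence stands for both.
Arxes1: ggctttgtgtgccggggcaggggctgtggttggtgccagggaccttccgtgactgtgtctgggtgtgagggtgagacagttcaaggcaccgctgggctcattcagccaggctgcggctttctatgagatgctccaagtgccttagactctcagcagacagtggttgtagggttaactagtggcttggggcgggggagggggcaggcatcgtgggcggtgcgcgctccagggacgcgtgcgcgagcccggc
The heat shock genes Hspa1a and Hspa1b differed at 3 of 250 positions (98.8% identical).

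All levels below are log2 RMA values, a scale on which a difference of 1 is a doubling, and every difference is KO minus WT. A probe set was called when its two-sided limma p-value, adjusted by the Benjamini-Hochberg method over all 41345 probe sets, was under 0.05. Levels of the multi-symbol probe sets ranged from 1.83 to 12.3 with a median of 4.35, and 979 of them lay above 4.04, the median of all deposited values. Signal below that level is not shown to exceed background, and no fold is given where a group mean lies there.

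Markers of the cells, read on probe sets of their own, bear on these values. All 6 Treg and T cell markers lay above the overall median, and Foxp3 had means of 10.70 in WT and 10.72 in KO samples. Ikzf2, the gene of the Treg cell factor Helios, had 10.03 ± 0.153 (SD, n = 5) and 9.31 ± 0.342 (SD, n = 4) without overlap (difference -0.72, limma adjusted p = 0.0699). Cd3e differed by -0.31, also without overlap, Cd4 by -0.18, Ctla4 by -0.09 and Il2ra by 0.06 (limma adjusted p from 0.102 to 0.859). The mean over the 6 was 9.98 to 10.1 in WT and 9.70 to 9.86 in KO samples, without overlap. B cell markers (4 of 5 measured, all above the median) had means of 4.76 to 5.69 in WT and 4.95 to 5.85 in KO samples. CD8 T cell markers (2) had 5.15 to 5.68 and 5.63 to 6.19, and myeloid markers (5, of which 2 lay above the median) 3.81 to 4.13 and 4.07 to 4.57. Of 3 NK cell markers, and of Klf1 as the 1 erythroid marker measured, none lay above the median. No marker was called. The part of other cells in the called sets was not tested. Fewer cells of a type and less RNA per cell cannot be told apart in such samples. KO values were also more spread: the SD was larger in KO in 58.2% of the multi-symbol sets (59.1% of all), with medians of 0.143 and 0.117. Array medians lay between 3.99 and 4.08. Title serial numbers place all WT before all KO samples, so an effect of that order and genotype cannot be told apart.

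Few of these probe sets differed between the groups: 16 of 1814 (0.882%) were called, 3 higher (0.165%) and 13 lower (0.717%) in KO cells. Over all probe sets 1.28% were called, 0.404% higher and 0.876% lower. The count was 34 when only probe sets with a symbol were tested, beside 531 of all 25335 then tested. With a filter on dim probe sets it was 26, beside 727 of all 20718 that remained. Slfn9/Slfn8, Bmpr2/Gm20272 and Tdg-ps2/Tdg fell the most, and Bach2/Bach2os, Ifi211/Ifi204 and Flt3l/Rpl13a were the 3 that rose. Among the probe sets with several symbols 11 also reached a fold of 1.5 (0.606%, against 0.965% of all). At an unadjusted p under 0.05 there were 225 (12.4%, against 12.8% of all), 79 higher and 146 lower. The shares called were thus at or below those of the whole array, and differences were small in most: 1540 of 1814 (84.9%) lay within 0.25 of 0. The median difference was 0.0087, beside 0.011 over all probe sets.

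In each of the 16 called sets every KO value lay on one side of every WT value. Groups without overlap were found in 123 of the 1814 (6.78%), against 5.39% of all probe sets. Some of the 123 hold identical values, among them the 4 sets of Rnu3b1/Rnu3b2/Rnu3b4/Rnu3b3, so they are not all separate readings. The count of called sets rests on few arrays. It was 10 without KO 1, 27 without KO 2, 7 without KO 3 and 13 without KO 4. Without WT 1 to WT 5 it was 10, 6, 9, 5 and 6, in that order. The count over all probe sets moved as well, from 529 with every array. Without KO 1 to KO 4 it was 288, 631, 327 and 524, and without WT 1 to WT 5 it was 295, 262, 285, 255 and 285. Slfn9/Slfn8, Flt3l/Rpl13a, Tdg-ps2/Tdg, Bmpr2/Gm20272 and Bcl2a1d/Bcl2a1a/Bcl2a1b kept their call whichever array was left out.

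**Figure D1:**
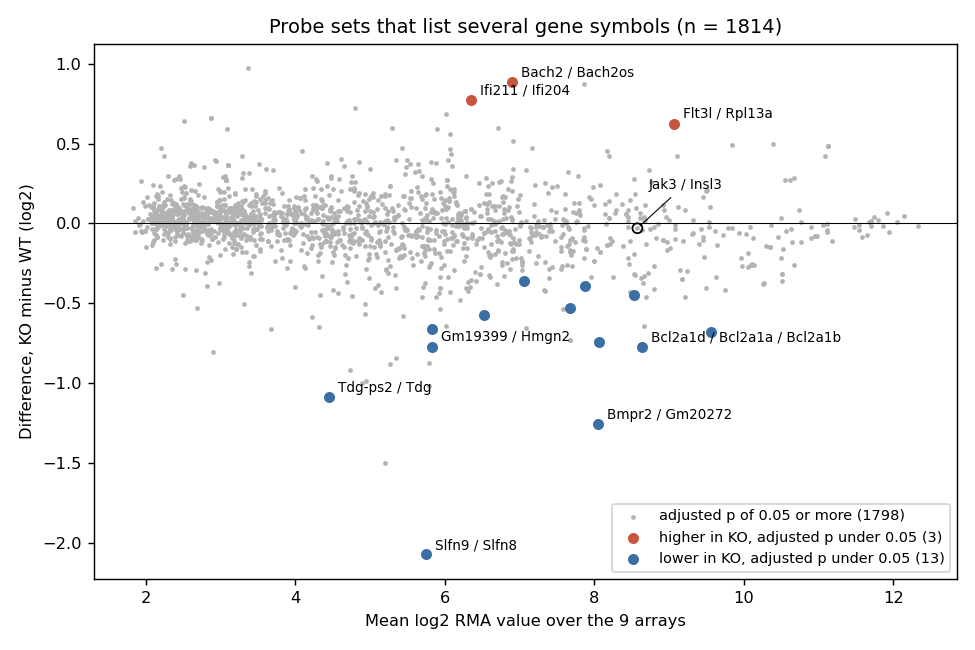
Difference between KO and WT (log2, y axis) against mean level over the 9 arrays (log2 RMA value, x axis) for the 1814 probe sets that list several symbols; coloured points are the 16 past an adjusted p of 0.05 (3 higher, 13 lower) and the open circle is Jak3/Insl3. Most points lie within 0.25 of 0, and Slfn9/Slfn8 is the lowest at -2.07.

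Families of interferon-inducible and innate sensing genes held 3 of the called sets. Of 31 probe sets in these families, 1 rose, 2 fell and 28 were not called, beside 0.404% higher and 0.876% lower over the array. Slfn9/Slfn8, which lists a pair of Schlafen genes known for growth control in T cells, read 6.76, 6.54, 6.31, 7.14 and 6.60 in WT samples. In KO samples it read 4.79, 4.48, 4.10 and 5.03. The groups were apart by 1.28 at their nearest values, and WT 4 was the highest and KO 3 the lowest array. The mean fell from 6.67 ± 0.310 (SD, n = 5) to 4.60 ± 0.404 (SD, n = 4), a 4.20-fold decrease (difference -2.07 ± 0.214 (SE), limma adjusted p = 0.00275). A separate probe set annotated to Slfn8 alone did not follow it: 7.17 ± 0.213 (SD, n = 5) in WT and 7.54 ± 0.522 (SD, n = 4) in KO cells, a difference of 0.37 with a 95% interval from -0.15 to 0.88 (limma adjusted p = 0.575). Slfn9 had no probe set of its own. Differences between probe sets of 1 gene were not tested here or below.

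Ifi211/Ifi204 lists 2 members of the HIN-200 family, whose proteins sense DNA or regulate transcription. Its WT values were 5.71, 6.03, 6.32, 5.98 and 5.99, and its KO values were 7.04, 6.59, 6.64 and 6.85. All KO arrays were higher, with KO 1 highest and WT 1 lowest. The rise was 1.71-fold (difference 0.77 ± 0.133 (SE), limma adjusted p = 0.0295). Ifi204 alone also rose, from 4.31 ± 0.339 (SD, n = 5) to 5.72 ± 0.380 (SD, n = 4), a difference of 1.41 (limma adjusted p = 0.0184). Leaving out any of KO 1, KO 3, KO 4, WT 1, WT 2, WT 4 or WT 5 took the adjusted p of Ifi211/Ifi204 past the threshold, to 0.0834 at most.

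Gm4070/Gvin1 belongs to the very large interferon-inducible GTPases. It read 8.65, 8.88, 8.67, 8.76 and 8.65 in WT and 8.34, 8.30, 8.22 and 8.23 in KO samples. It fell by 1.37-fold (difference -0.45 ± 0.0677 (SE), limma adjusted p = 0.0173) and narrowly lost its call without KO 3 or WT 4 (adjusted p up to 0.0558). The 3 other probe sets that list Gvin1, each with Gm4070 and up to 2 further models, were lower by 0.26 to 0.33 and were not called (limma adjusted p from 0.107 to 0.200). The 4 sets that share Gvin1 thus had differences of 1 sign.

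Survival genes of the BCL-2 family were represented by the A1 cluster, whose near-identical flanks are printed above. A1 proteins bind and restrain the pro-apoptotic members of the family and are known to be induced in activated lymphocytes. Bcl2a1d/Bcl2a1a/Bcl2a1b read 8.91, 9.27, 8.84, 9.00 and 8.90 in WT samples and 8.21, 8.32, 8.02 and 8.31 in KO samples, with WT 2 highest and KO 3 lowest. It fell 1.71-fold (difference -0.77 ± 0.104 (SE), limma adjusted p = 0.0100).

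A second probe set, of Bcl2a1b and Bcl2a1a, read 8.35, 8.49, 8.33, 8.48 and 8.28 in WT samples and 7.67, 7.87, 7.25 and 7.79 in KO samples, again without overlap and again lowest in KO 3. It fell 1.67-fold (difference -0.74 ± 0.124 (SE), limma adjusted p = 0.0271), and lost its call without KO 1 or without any 1 of the WT arrays (adjusted p up to 0.0787). Bcl2a1a alone, which went from 7.02 ± 0.158 (SD, n = 5) to 6.41 ± 0.262 (SD, n = 4) without overlap, just missed the threshold (difference -0.61, limma adjusted p = 0.0698). These 3 probe sets list overlapping genes and are not independent readings of the cluster.

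Several called sets list a signalling or transcription regulator beside a gene model or a neighbour. Bmpr2 encodes the type II receptor of bone morphogenetic proteins. Bmpr2/Gm20272 read 8.64, 8.39, 8.61, 8.74 and 8.66 in WT and 7.22, 6.92, 7.51 and 7.77 in KO samples. WT values lay close together, while KO arrays spread from KO 2 (6.92) to KO 4 (7.77). The set fell 2.39-fold (difference -1.26 ± 0.161 (SE), limma adjusted p = 0.00805), and the probe set of Bmpr2 alone fell too, from 7.23 ± 0.0648 (SD, n = 5) to 6.06 ± 0.481 (SD, n = 4) (difference -1.17, limma adjusted p = 0.0250).

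Bach2, a transcriptional repressor known to hold T cells in a resting state and to support Treg cell formation, shares its probe set with the opposite-strand gene Bach2os, whose span overlaps it. The values were 6.46, 6.56, 6.63, 6.49 and 6.37 in WT and 7.78, 7.12, 7.47 and 7.17 in KO samples. KO 1 and KO 3 were the highest arrays, and the smallest gap between the groups was 0.49. The set rose 1.85-fold (difference 0.88 ± 0.135 (SE), limma adjusted p = 0.0184). It lost the call without KO 3, WT 1, WT 2, WT 4 or WT 5 (adjusted p up to 0.0580). On the probe set of Bach2 alone the KO arrays were also all higher, 7.80 ± 0.438 (SD, n = 4) against 7.02 ± 0.185 (SD, n = 5), but the difference of 0.78 was not called (limma adjusted p = 0.113).

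Flt3l/Rpl13a joins the gene of a cytokine that drives dendritic cell development to that of a ribosomal protein. Both genes lie on 1 chromosome, and in the RefSeq order other genes start between them. WT samples read 8.79, 8.82, 8.90, 8.70 and 8.74 and KO samples 9.43, 9.53, 9.41 and 9.28. KO 4 was the lowest of its group and still lay above every WT array. The rise came to 1.54-fold (difference 0.62 ± 0.0698 (SE), limma adjusted p = 0.00399). Rpl13a also hosts small nucleolar RNA genes, and 3 further probe sets list it with them. None was called: Snord32a/Rpl13a differed by 0.45 (limma adjusted p = 0.447), Snord33/Mir5121/Rpl13a by 0.04 and Snord34/Rpl13a had nearly equal means (5.18 in each group).

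Hipk3/Mir1902 lists a homeodomain-interacting protein kinase and a microRNA gene within its span. Its values were tightly grouped, 7.99, 8.05, 8.09, 8.11 and 8.02 in WT and 7.75, 7.64, 7.53 and 7.72 in KO samples. The decrease was 1.31-fold (difference -0.39 ± 0.0637 (SE), limma adjusted p = 0.0240). Without KO 3, WT 2, WT 3, WT 4 or WT 5 it was no longer called (adjusted p up to 0.0742).

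**Figure D2:**
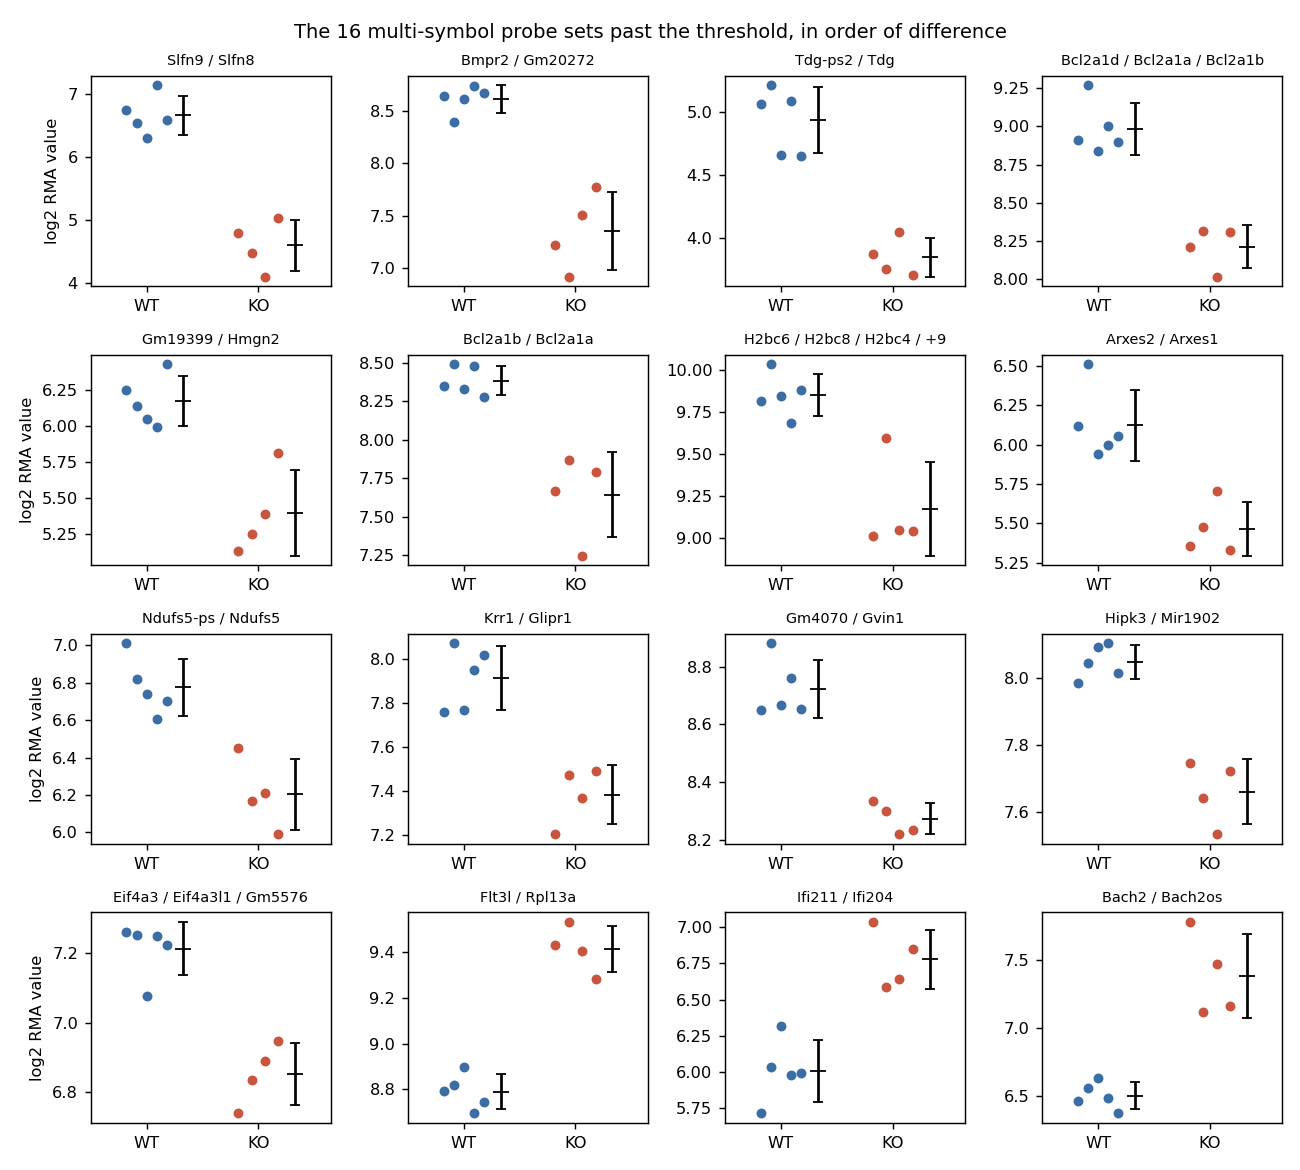
Log2 RMA value of each of the 16 called multi-symbol probe sets, with 1 point per array, WT (n = 5) in blue and KO (n = 4) in red; the bars show the mean and SD, and each panel has its own scale. The groups do not overlap in any panel, with the widest gap in Slfn9/Slfn8 (1.28) and the narrowest in the 12-symbol H2B histone list (0.088).

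Tdg encodes thymine DNA glycosylase, an enzyme of active DNA demethylation, and is listed with its pseudogene Tdg-ps2. The set read 5.06, 5.21, 4.66, 5.09 and 4.65 in WT and 3.87, 3.75, 4.05 and 3.71 in KO samples. Among the KO arrays only KO 3 stayed above the overall median, the KO mean of 3.84 lay below it, and no fold is given (difference -1.09 ± 0.138 (SE), limma adjusted p = 0.00777). The probe set of Tdg with another pseudogene, Tdg-ps, was not called, at 5.97 ± 0.249 (SD, n = 5) and 6.18 ± 0.118 (SD, n = 4) (difference 0.21, 95% interval -0.08 to 0.50, limma adjusted p = 0.557).

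The histone set of 12 symbols (H2bc6, H2bc8, H2bc4 and 9 more, with H4bc24 among them) reads replication-dependent H2B genes, which are known to be transcribed mainly in S phase. It read 9.82, 10.04, 9.85, 9.68 and 9.88 in WT and 9.02, 9.60, 9.05 and 9.05 in KO samples. KO 2 stood close to the WT range, apart from the other KO arrays. The set fell 1.60-fold (difference -0.68 ± 0.130 (SE), limma adjusted p = 0.0460), and the call was kept only when KO 2 was the array left out (adjusted p up to 0.122 without another). In all, 59 probe sets list histone genes, of which 1 fell (0.876% of all probe sets did), 0 rose and 13 had an unadjusted p under 0.05 (12.8% of all). These sets hold 54 different value rows, 12 of them with such a p. The median difference of the histone sets was -0.088, beside 0.011 over all probe sets. The 11 other sets that share a gene with the called list differed by -0.65 to 0.23 and none was called. Among them, H2bc8/H2bc6/H2bc4 had the lowest value (-0.65, limma adjusted p = 0.112), and the same 12 symbols on a pair of sets with identical values differed by -0.40 (limma adjusted p = 0.167). H2bc14 and H2bc12 alone differed by 0.04 and 0.23, and H2bc9 alone by -0.31, with adjusted p from 0.626 to 0.903 in limma. The means of H2bc14 (2.41 in WT, 2.44 in KO) and of H2bc9 (3.22 and 2.91) lay below the overall median.

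Gm19399/Hmgn2, which lists a nucleosome-binding protein, read 6.24, 6.14, 6.04, 5.99 and 6.42 in WT and 5.13, 5.25, 5.39 and 5.81 in KO samples. It fell 1.71-fold (difference -0.77 ± 0.145 (SE), limma adjusted p = 0.0429). KO 4 was the highest of its group, and the call remained only when KO 4 was the array left out (adjusted p up to 0.107 without another). Gm19399 alone did not follow (difference -0.03, limma adjusted p = 0.928). Hmgn2 was also listed with other models, and neither set was called. The brighter went from 6.93 in WT to 6.61 in KO cells (difference -0.33, limma adjusted p = 0.360). The dimmer had means of 3.73 and 3.92, below the overall median (difference 0.19, limma adjusted p = 0.702).

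Krr1, a factor of ribosomal RNA processing, and Glipr1 have overlapping spans, and their shared set read 7.76, 8.07, 7.77, 7.95 and 8.02 in WT and 7.20, 7.47, 7.37 and 7.49 in KO samples. It fell 1.44-fold (difference -0.53 ± 0.0943 (SE), limma adjusted p = 0.0337), with the call lost without KO 1, KO 3, WT 2, WT 3, WT 4 or WT 5 (adjusted p up to 0.0937). Krr1 alone was lower by 0.14 and not called (limma adjusted p = 0.392).

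Eif4a3 encodes the RNA helicase at the core of the exon junction complex and is listed with Eif4a3l1 and Gm5576. Values were 7.26, 7.25, 7.08, 7.25 and 7.22 in WT and 6.74, 6.83, 6.89 and 6.95 in KO samples (1.28-fold lower, difference -0.36 ± 0.0671 (SE), limma adjusted p = 0.0400). Eif4a3 alone had nearly equal means, 5.31 and 5.28. Ndufs5-ps/Ndufs5, which lists a subunit of respiratory complex I and its pseudogene, read 7.01, 6.82, 6.74, 6.60 and 6.70 in WT and 6.45, 6.17, 6.21 and 5.99 in KO samples (1.49-fold lower, difference -0.57 ± 0.111 (SE), limma adjusted p = 0.0467). The probe set of Ndufs5 alone did not follow (difference -0.03, limma adjusted p = 0.952). Its means, 4.20 in WT and 4.17 in KO cells, lay near the overall median.

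Arxes2/Arxes1, a pair of X-linked genes with the same flanking sequence, read 6.12, 6.51, 5.94, 6.00 and 6.06 in WT and 5.35, 5.47, 5.70 and 5.33 in KO samples (1.58-fold lower, difference -0.66 ± 0.129 (SE), limma adjusted p = 0.0498). It was the called set nearest the threshold, the next set outside having an adjusted p of 0.0544, and leaving out any 1 array ended the call (adjusted p up to 0.130). Eif4a3/Eif4a3l1/Gm5576 kept its call only without KO 4 or without WT 3 (up to 0.109 otherwise), and Ndufs5-ps/Ndufs5 only without KO 1 (up to 0.120 otherwise).

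Jak3, the kinase that signals from the common gamma chain of the interleukin-2 receptor, is read here only together with Insl3, a hormone gene whose span overlaps it. The WT values were 8.58, 8.60, 8.46, 8.70 and 8.58 and the KO values 8.57, 8.54, 8.53 and 8.58. The KO range lay inside the WT range. The difference was -0.03 ± 0.0607 (SE) with a 95% interval from -0.17 to 0.11 (limma adjusted p = 0.886). It was the single multi-symbol set with a cytokine receptor or JAK-STAT gene of the list used.

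Genes that define Treg cells appeared on 2 lists and neither was called. Ccdc22/Foxp3/Ppp1r3f read 6.80 ± 0.146 (SD, n = 5) in WT and 6.84 ± 0.0201 (SD, n = 4) in KO samples, the KO values lying within the WT range (difference 0.03 ± 0.0804 (SE), limma adjusted p = 0.905). Tnfrsf18/Gm16008, with the gene of the costimulatory receptor GITR, was described after its values were seen and differed by -0.16 ± 0.104 (SE) (limma adjusted p = 0.593). Its KO values were 5.39, 5.39, 5.36 and 4.94, so KO 4 alone lay apart. The probe set of Tnfrsf18 alone was brighter, at 9.07 ± 0.154 (SD, n = 5) in WT and 8.79 ± 0.206 (SD, n = 4) in KO cells. It was not called (difference -0.28, limma adjusted p = 0.354). Of 3 sets with a Hippo pathway gene none was called, the 1 named by the rule being Taok1/Ets1 at 7.76 ± 0.0496 (SD, n = 5) in WT and 7.77 ± 0.164 (SD, n = 4) in KO cells.

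MicroRNA genes were named by 136 of the probe sets, of which only Hipk3/Mir1902 was called (1.28% of all probe sets were). An unadjusted p under 0.05 was found in 30 of them, or 20 of 111 different value rows, against 12.8% of all probe sets. A probe set that lists a host gene and a microRNA gene can read the host transcript, so its level is not that of the mature microRNA. Of 148 microRNA symbols, 113 had a mature sequence in the RefSeq table, with 181 mature names and 168 different seeds. The mature sequences of 4 follow, from lists named in the text, with the seed (bases 2 to 8) in capitals; no seed is shared among these 4. They lie at chr2:104428871-104428892, - strand (mmu-miR-1902), chr11:86584120-86584141, - strand (mmu-miR-21a-5p), chr19:8888709-8888728, - strand (mmu-miR-5136) and chr16:84714143-84714165, + strand (mmu-miR-155-5p) of GRCm38.p6.
mmu-miR-1902: aGAGGUGCaguaggcaugacuu
mmu-miR-21a-5p: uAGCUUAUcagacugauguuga
mmu-miR-5136: aUAUGCGAgggaacuacugg
mmu-miR-155-5p: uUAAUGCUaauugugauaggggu

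Vmp1/Mir21a, with the gene of the abundant miR-21, was singled out after its values were seen. It read 7.73, 7.95, 7.99, 7.91 and 7.53 in WT and 7.16, 6.97, 7.52 and 7.49 in KO samples. WT 5, the lowest WT array, and KO 3, the highest KO array, were nearly equal, and the set was not called (difference -0.54 ± 0.142 (SE), limma adjusted p = 0.131). The probe set of Vmp1 alone, a gene of autophagosome formation, fell from 9.59 ± 0.206 (SD, n = 5) to 8.85 ± 0.208 (SD, n = 4) (difference -0.74, limma adjusted p = 0.0337).

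Also chosen after its values were seen, 5730408K05Rik/Mir5136 read 8.10, 7.37, 7.51, 7.28 and 7.12 in WT and 8.24, 8.77, 8.14 and 8.25 in KO samples. WT 1 lay just under the lowest KO array, and the difference of 0.87 ± 0.206 (SE) was not called (limma adjusted p = 0.0944), whereas without WT 1 it passed (limma adjusted p = 0.0287). Mir155/Mir155hg, the precursor and host of a microRNA needed for Treg cell fitness, had values from 5.71 to 6.37 and differed by -0.05 ± 0.160 (SE) (limma adjusted p = 0.932). Sets that list small RNA genes only numbered 66. Their median difference was 0.197, but many of these sets hold the same values: over their 31 different value rows the median was 0.084. None of the 66 was called.

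Of the 2726 symbols listed, 925 (33.9%) also had a probe set of their own. Among the 16 called sets, 11 listed such a gene, and in 2 of them, Bmpr2/Gm20272 and Ifi211/Ifi204, that gene's own probe set was called. Conversely, 27 multi-symbol sets were not called although a probe set of 1 listed gene was. In 672 multi-symbol sets no listed gene had a probe set of its own, so no such comparison was possible. Several of the 27 share a called gene, such as Rps13 or 4930555G01Rik, so they do not stand for 27 genes. Of these 27, 8 had an unadjusted p under 0.05, and 21 had a mean above the overall median.

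In some cases the readings lay far apart, and those named here were chosen after their values were seen. Rps13, a ribosomal protein gene with many processed copies, fell by 3.29 on its own probe set (from 9.99 to 6.69, limma adjusted p = 0.00336). On Gm15483/Rps13-ps4/Rps13, however, the values were 10.55, 10.25, 10.12, 10.54 and 10.68 in WT and 10.80, 10.70, 10.75 and 10.55 in KO samples. The groups overlapped, and the set was not called (difference 0.27 ± 0.122 (SE), limma adjusted p = 0.402). Trim34a, of the antiviral TRIM family, fell by 1.76 and by 1.85 on its own probe sets. Trim34b/Trim34a read 7.75, 8.14, 8.02, 8.26 and 7.86 in WT and 8.92, 8.15, 8.11 and 8.52 in KO samples, with a difference of 0.42 ± 0.179 (SE) in the other direction that was not called (limma adjusted p = 0.368).

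In the same TRIM cluster, Trim12c alone rose by 0.69 (limma adjusted p = 0.0239), while the 2 sets of Trim12c and Trim5 differed by -0.12 and -0.22 and were not called. Hdgfl3, which encodes a relative of hepatoma-derived growth factor, fell by 0.90 on its own probe set (limma adjusted p = 0.00211), and Tm6sf1/Hdgfl3 read between 6.19 and 6.38 on all 9 arrays. The means of Glt28d2/Arfip1 were 4.17 and 3.78, the latter below the overall median (not called), and those of Arfip1 alone were 5.38 and 3.29, a fall to below that level. Hif1a, the oxygen-regulated transcription factor, fell by 0.56 alone, and its set with the pseudogene S100a11-ps had a mean of 4.88 in each group.

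**Figure D3:**
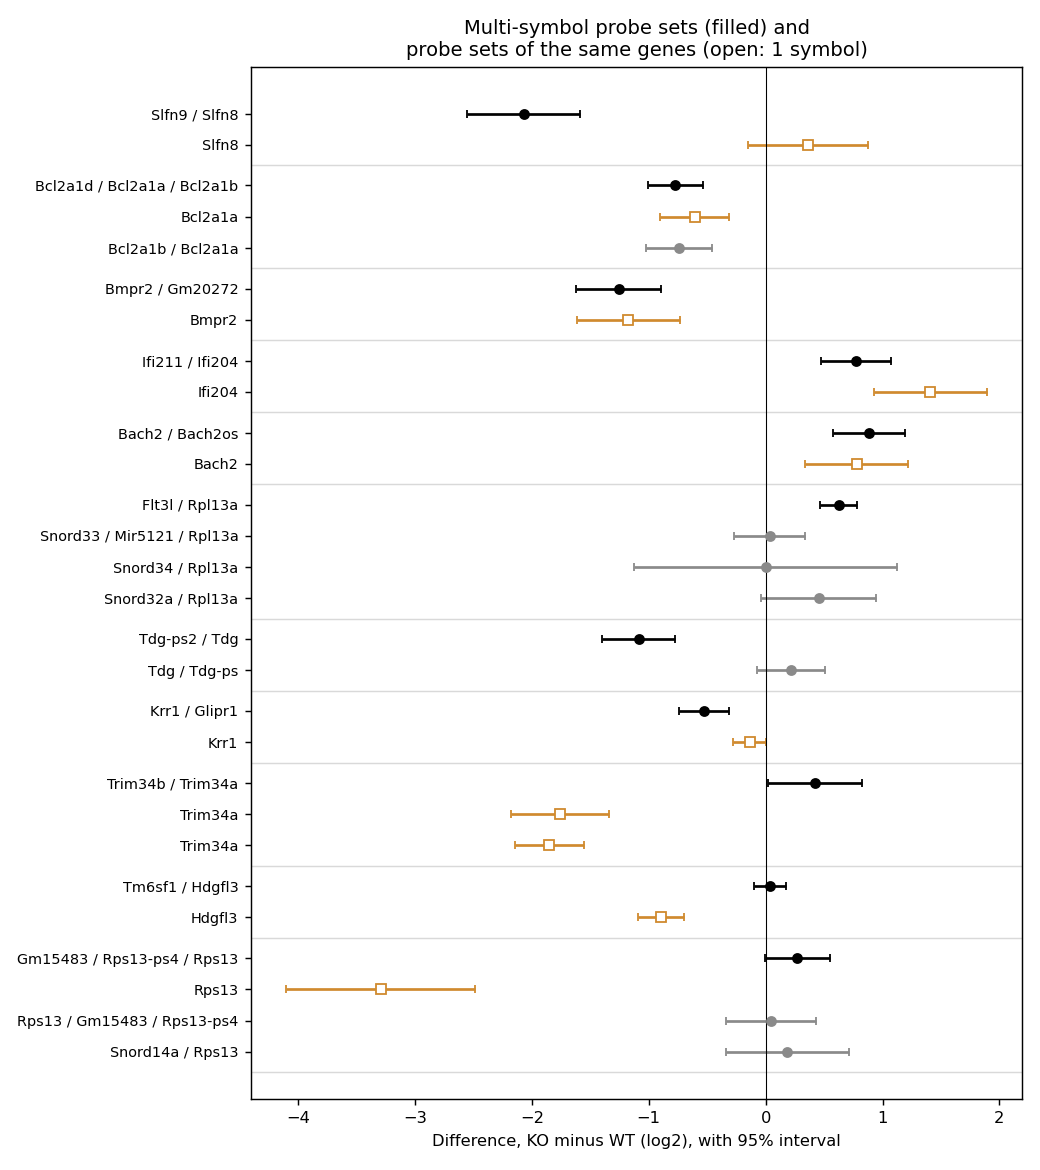
Difference between KO and WT (log2, x axis) with its 95% interval from limma for multi-symbol probe sets (filled circles, black for the set described and grey for other sets that share a gene) and for probe sets of 1 listed gene (open squares). Sets that share a gene lie on the same side of 0 for Bcl2a1 and Bmpr2 (below) and for Ifi204 and Bach2 (above). The sets of Slfn8, Trim34a and Rps13 lie far apart.

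Of 59 sets with a ribosomal protein gene 1 rose (Flt3l/Rpl13a; 0.404% of all probe sets rose) and 0 fell, with a median difference of -0.0078. All 7 probe sets of Gm12070/Gapdh, a glycolytic enzyme gene and a model, were lower by 0.25 to 0.31 in KO cells without overlap between groups (5.39% of all probe sets had none), and none was called (limma adjusted p from 0.113 to 0.164). One of them, chosen after its values were seen, read 10.24, 10.31, 10.27, 10.25 and 10.20 in WT and 9.87, 10.12, 9.98 and 10.01 in KO samples. A pair of these sets holds identical values, and all share the gene, so they are not 7 separate readings. None of the 7 sets of MHC genes was called, and H2-Q7/H2-Q9/H2-Q8, class I genes, read 12.12 ± 0.0702 (SD, n = 5) in WT and 12.16 ± 0.0603 (SD, n = 4) in KO cells.

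Among translation and RNA processing genes 1 of 34 sets fell (Eif4a3/Eif4a3l1/Gm5576), among mitochondrial genes 1 of 31 (Ndufs5-ps/Ndufs5) and among cell cycle and chromatin genes 1 of 20 (Gm19399/Hmgn2), where 0.876% of all probe sets fell. No set was called among 35 with chemokine or cytokine genes, 56 with zinc finger genes, 15 with heat shock genes, 16 with kinases or phosphatases, 62 with small nucleolar or nuclear RNA genes and 85 with olfactory, vomeronasal or taste receptors. Of the olfactory and related receptor sets, 2 of 85 lay above the overall median, against 55 of 59 ribosomal sets. Klrb1a/Klrb1c, genes of natural killer cell receptors, stood for the 4 killer lectin-like sets and read 2.90 ± 0.232 (SD, n = 5) in WT and 2.77 ± 0.332 (SD, n = 4) in KO cells, below that median. None of the 4 was called or lay above it.

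By kind of list, 470 sets named genes that share a stem (the letters before the first digit), 425 named genes with different stems and 518 named 1 gene with predicted models. A further 208 held predicted models only, 127 a small RNA gene with another gene, and 66 small RNA genes only. Calls were 9 of 470 (2 higher, 7 lower), 3 of 425, 3 of 518, 0 of 208, 1 of 127 and 0 of 66, against 1.28% over the array. The stem rule is crude: it places Bach2/Bach2os with the paralogs, joins H2B with other histone genes and puts Tdg-ps2/Tdg with the different names. Unadjusted p-values under 0.05 were found in 59, 49, 60, 23, 16 and 18 sets, in the same order, against 12.8% over the array. The 18 of 66 are 8 of 31 different value rows. Of the sets with different names 77.6% lay above the overall median, against 43.0% of the stem-sharing sets and 29.3% of those with models only.

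**Figure D4:**
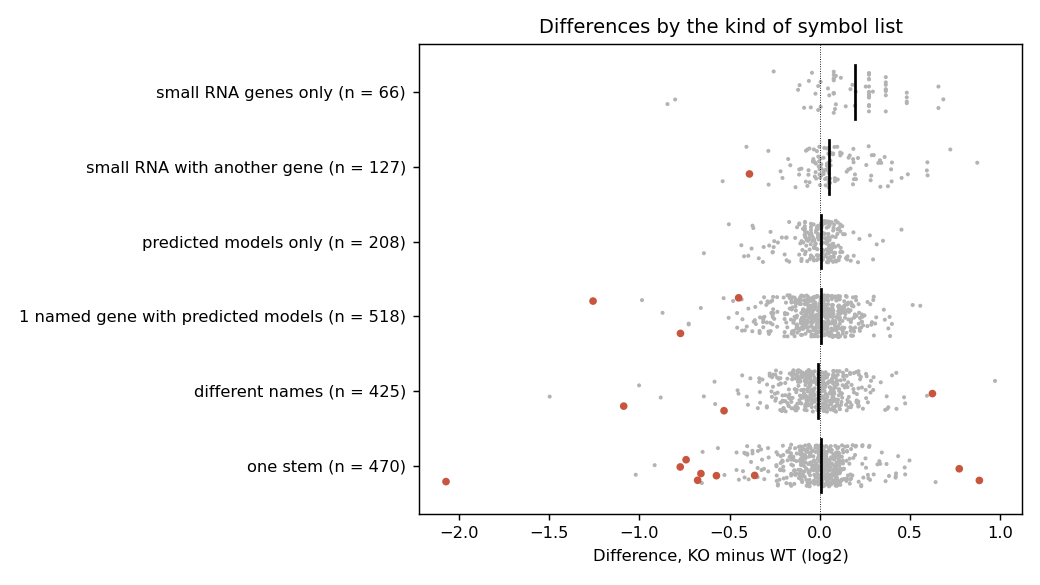
Difference between KO and WT (log2, x axis) of each multi-symbol probe set by the kind of its symbol list (rows, with the number of probe sets), with called sets in red and the median of each kind as a black bar. Medians lie near 0 in all kinds but the small RNA genes only, whose median of 0.197 rests partly on sets with identical values.

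Position in the genome (RefSeq gene order, GRCm38.p6) was read for each list. In 590 sets at least 1 pair of listed genes overlapped in span, and 3 of these were called (Bach2/Bach2os, Hipk3/Mir1902 and Krr1/Glipr1). In 154 the genes were neighbours (Arxes2/Arxes1 was called) and in 805 they lay on 1 chromosome with other genes between (8 called). A further 221 lists spanned more than 1 chromosome (3 called), as with a parent gene and its pseudogene, and 44 could not be placed fully (1 called). Over all probe sets 1.28% were called. Duplicate annotation was frequent: 192 lists stood on more than 1 probe set, and for 49 of them all the probe sets held identical values. In total 297 sets shared their values with another, leaving 1622 different value rows. The largest such group was Gm26504/Snord116l1/Snord116l2 with 16 identical probe sets.

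The study's interest in STAT5 led to a search of promoter windows (250 bases before to 50 after the start) for TTCNNNGAA, a consensus of STAT binding sites, which reads the same on both strands. Of all 32851 windows 2726 held it (8.30%), as did 157 of 2129 windows of genes on multi-symbol lists (7.37%) and 2 of 33 windows of genes on called lists (6.06%). Of the 42 symbols on called lists, 31 had a window. The 2 matches, with the motif in capitals, were in Bach2 at position -140 and in Tdg at -163 relative to the start.
Bach2: ggccttgtagTTCGTTGAAgagaaacact
Tdg: aacccacaccTTCAAGGAAacttagagcc
A match shows the letters only, and not that a factor binds.

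The largest spread between arrays was in gene copies of other kinds, described here after their values were seen. Hspa1a/Hspa1b, genes of an inducible heat shock chaperone, read 4.68, 3.93, 7.33, 8.08 and 8.57 in WT and 4.38, 8.24, 7.92 and 6.56 in KO samples. WT 1, WT 2 and KO 1 were low and the others high, so both groups held low and high arrays (difference 0.26 ± 1.15 (SE), limma adjusted p = 0.955). Hbb-b1/Hbb-b2/Hbb-bs, beta globin genes of red blood cells, had the widest range, 5.36, with 4.71, 7.81, 6.40, 5.59 and 3.79 in WT and 5.54, 2.44, 5.71 and 5.42 in KO samples. One alpha globin set, Hba-a2/Hba-a1, was likewise highest in WT 2 (9.35), and was lowest in WT 5 (5.76). The other set of these genes varied less, and was highest in KO 3 (6.58) and lowest in WT 1 (5.85). The single-gene erythroid marker Klf1 lay below the overall median in both groups.

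Lilr4b/Lilrb4a, inhibitory immunoglobulin-like receptors found on myeloid and some activated T cells, read 5.57, 6.93, 5.63, 6.08 and 5.14 in WT and 4.02, 3.22, 4.75 and 5.50 in KO samples. The groups overlapped, and the difference of -1.50 ± 0.487 (SE) was not called (limma adjusted p = 0.222), nor was Lilrb4a alone (-2.75, limma adjusted p = 0.0960). Lists of immunoglobulin light chain segments also varied within groups. The kappa light chain list in the plot of widely varying sets ranged from 9.41 to 11.07 in WT and from 9.93 to 11.14 in KO samples, and the groups overlapped (limma adjusted p = 0.667).

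**Figure D5:**
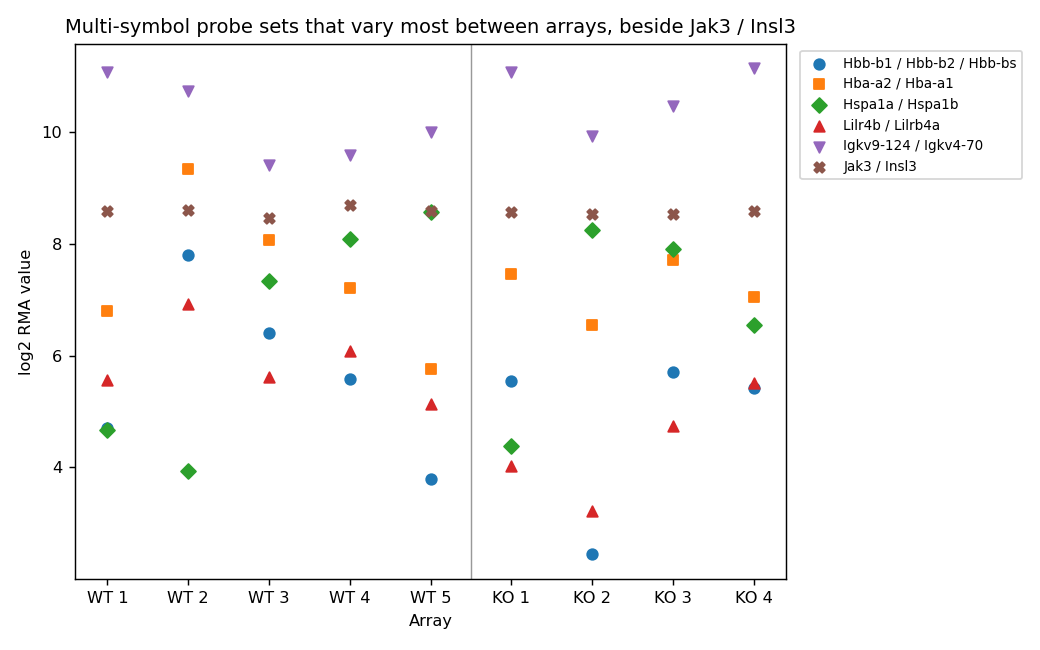
Log2 RMA value (y axis) on each of the 9 arrays (x axis, 5 WT then 4 KO) of 5 widely varying multi-symbol probe sets and of Jak3/Insl3. Jak3/Insl3 stays between 8.46 and 8.70, while Hbb-b1/Hbb-b2/Hbb-bs ranges from 2.44 to 7.81 and Hspa1a/Hspa1b from 3.93 to 8.57 over the 9 arrays. The Hbb and Hspa1 sets vary widely within each group.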

How the data were processed

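Gene expression was measured in 9 Treg cell samples (5 WT, 4 KO), 1 array each, after NuGEN WTA Pico v2 amplification and Encore Biotin labelling, per the labels' protocols. The deposited table holds log2 values that the authors computed by RMA; the submitters' processing notes name Affymetrix Expression Console 1.1. In RMA, background is corrected, arrays are brought to 1 distribution and the probes of a set become 1 value. The number of arrays limits the precision. Groups came from the sample labels.

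Symbols came from the platform annotation, which can be old. Members were all probe sets with 2 or more symbols, and they and the gene lists were chosen with earlier results of these data known. KO was compared with WT by limma 3.58.1 (lmFit and eBayes, R 4.3.3), two-sided, with Benjamini-Hochberg adjustment over all 41345 probe sets, no filter on dim probe sets and a threshold of 0.05. The test was checked on simulated data. Named were sets with Jak3, Stk3 or Stk4, the 12 largest called differences without overlap in each direction, and for each of 28 symbol families up to 3 called sets, or the brightest where none was called. These picks skipped sets of predicted models only, antigen receptor segments and Y-linked genes, and sets chosen after their values were seen are marked or described with the array-to-array spread. No set is given to a single gene.

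Alternatives were a replicate block, testing only probe sets with a symbol, a filter at the median of all values (4.04), median centring, quantile normalisation, eBayes with trend and robust settings, array weights, the level of Hspa1a and Hspa1b as a covariate, and leaving out each array. Promoters, microRNAs and gene order came from RefSeq tables (GRCm38.p6), windows were aligned with Biopython 1.88, tables handled with Python 3.11.15, pandas 2.3.3 and numpy 2.4.6, and plots drawn with matplotlib 3.10.9. For the array design, no genome build is given in the sources at hand.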

Additional observations from a re-analysis of the deposited data

Results flagged for a closer look

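For each of 64 named probe sets, the highest and lowest array of each group was set against the others of its group (128 groups in all). In 13 groups an array lay far from the rest relative to the range of its group. The gap to the nearest array was taken as a share of that range, so small gaps can be flagged. Chance marks about 1 group in 20, a rate that does not allow for shared arrays or tied values. The flagged arrays are listed as values.

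In KO samples, KO 2 stood apart in 5 sets. It read 9.60 in the 12-symbol H2B list, above the other KO arrays. It was also high in Pcdhga10/Gm19774, a protocadherin set (10.24), in Tm6sf1/Hdgfl3 (6.38) and in Ccdc22/Foxp3/Ppp1r3f (6.87). In Hbb-b1/Hbb-b2/Hbb-bs it was the lowest array, at 2.44. KO 4 was low in Tuba4a/Stk16, a tubulin and a kinase gene (8.93), in Tnfrsf18/Gm16008 (4.94) and in the X-linked Xlr4a/Xlr4b/Xlr4c/Xlr4d-ps (9.23).

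In WT samples, WT 3 was low in Eif4a3/Eif4a3l1/Gm5576 (7.08) and in Olfr56/Ifi47 (5.18). WT 2 was low in the U3 small nucleolar RNA set Rnu3b1/Rnu3b2/Rnu3b4/Rnu3b3 (10.06), which is otherwise between 11.03 and 11.47. WT 1 was high in Tnfrsf18/Gm16008 (5.58) and WT 5 in Csnk1d/Slc16a3 (7.27).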

How the results depend on the processing

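The count of called multi-symbol sets was 16, of which 3 higher, 13 lower and 11 with a fold of 1.5. It stayed within 1.5 times (13 to 17) with array weights, trend and robust settings, median centring, quantile normalisation and the Hspa1a and Hspa1b covariate. The sets were not all the same. Of the 16, the covariate kept 11, quantile normalisation 12, median centring 13, trend and robust settings 13 and array weights 14. The count was 26 (22 lower) with the filter on dim probe sets, beside 727 of all 20718 that remained. It was 34 (8 higher, 26 lower, 17 with the fold) when only probe sets with a symbol were tested, beside 531 of all 25335. Both included all 16. Leaving out 1 array gave 5 to 27 sets (1 to 5 higher, 4 to 22 lower, 5 to 12 with the fold), beside 255 to 631 of all probe sets. With the replicate number as a block 1 set passed (0 higher, 1 lower, 1 with the fold): Slfn9/Slfn8 (difference -2.09, limma adjusted p = 0.0134), and 16 of all probe sets, against 529. Same-numbered samples did not deviate together from their group means over all probe sets (correlations from -0.138 to 0.027). The labels do not say what the number marks, so whether same-numbered samples share an origin cannot be told. Flt3l/Rpl13a, Tdg-ps2/Tdg, Bmpr2/Gm20272 and Bcl2a1d/Bcl2a1a/Bcl2a1b lost their call only under that block (adjusted p from 0.0807 to 0.129). No called difference changed sign in the 17 alternatives. Slfn9/Slfn8 alone passed in all of them. Causes were not tested. Signal near background limits the dim sets.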
